A study of Mus musculus with 6 samples.

Results

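The chemokine genes Cxcl14 and Cxcl12 and the Cxcl12 receptors Cxcr4 and Ackr3 were read in single cells of mouse limb buds. They are 4 of the 15668 genes with a row in both count matrices of the series. Cxcl14 was selected on its level in cells of the apical ectodermal ridge (AER), the epithelial rim that drives limb outgrowth, which had been seen to be higher in all 3 mutant libraries than in their wild types. Its AER values are therefore given as a description with no test. The other genes were taken with it as a ligand of the same family and that ligand's receptors.

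Chemokines are small secreted proteins that attract or hold cells bearing matching receptors. Cxcl12 signals through Cxcr4, a G protein coupled receptor, while Ackr3 (Cxcr7 in older annotations) binds the same ligand, recruits arrestins and clears ligand from the surroundings. In the limb bud, Cxcl12 from mesenchyme and Cxcr4 on muscle precursors are known for their part in the migration of these precursors from the somites. Cxcl14 is a chemokine of skin and other epithelia whose receptor is not settled.

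The libraries were made from limb buds at stage E11.5 by droplet sequencing of the 3′ ends of transcripts, with molecules counted as UMIs. There were 6 groups of 1 library each. Hindlimbs came from wild-type embryos and from embryos homozygous for the duplication Dup, both labelled with the strain c57bl6.J (C57BL/6). Hindlimbs and forelimbs also came from wild-type embryos and embryos homozygous for the inversion Inv1, labelled G4 ESC. G4 is an embryonic stem cell line of a cross between 129 and C57BL/6 mice. By the study's methods, mutant mice were made from edited G4 cells by embryo aggregation, and lines were kept from several founders crossed to C57BL/6 animals. The Dup allele repeats in tandem a stretch of chromosome 19 that carries Lbx1, Btrc, Poll, Dpcd and Fbxw4. The Inv1 allele turns a stretch with 1 end inside Fbxw4, which brings the AER enhancers of Fgf8 next to Lbx1 and Btrc. None of the 4 chemokine genes lies on the rearranged chromosome.

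Of 26486 cells in the tables, 24891 had over 2000 detected genes and were kept. The libraries held 2249 to 5947 kept cells and 22660212 to 59403104 UMIs, and the median cell had 6729 to 10102 UMIs. Cell classes are those deposited by the authors. A library pair shared 2 to 13 cell barcodes. As a check of the alleles, Lbx1 in AER cells was at 173, 197 and 194 CPM (UMIs of the gene per 1e6 UMIs of the class) in Dup, Inv1 hindlimb and Inv1 forelimb, and had 2, 0 and 1 UMIs in the matching wild types. Fgf8 was at 2574 to 7315 CPM in the AER cells of the wild types and Dup, and at 37.6 and 10.3 CPM in Inv1 hindlimb and forelimb, although the authors used Fgf8 with En1 to name the class. In AER cells every library had UMIs of at least 11 of 12 AER markers, Fgf4 having 0 UMIs in both G4 libraries, and the sum of the markers ran from 3044 CPM in Inv1 hindlimb to 10012 CPM in G4 hindlimb. The C57BL/6 wild type stood apart in several readings below, so the ratio of the G4 to the C57BL/6 hindlimb is set beside those of Dup. All values are from 1 library per group, and no test between groups was run. The 95% intervals in the text are exact and cover counting error only, not differences between embryos. A ratio is that of the mutant level to the level of its wild type, and 1.5-fold in either direction served as the size limit.

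On build NCBIM37, the assembly behind mm9, Cxcl14 (ENSMUSG00000021508) spans positions 56390008 to 56397912 of the minus strand of chromosome 13, and Cxcl12 (ENSMUSG00000061353) positions 117118553 to 117131385 of the plus strand of chromosome 6. Both receptors are on chromosome 1, Cxcr4 (ENSMUSG00000045382) at 130484776 to 130488870 on the minus strand and Ackr3 (ENSMUSG00000044337) at 92100555 to 92113326 on the plus strand. No other annotated gene overlaps any of them.

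The members differed in the classes that held them. Cxcl14 was highest in dorso-ventral ectoderm, the surface epithelium on either side of the ridge, in 6 of 6 libraries. Cxcl12 UMIs came almost wholly from mesenchyme, which held most cells and gave 93.6 to 98.4% of them, while its level was higher in dorso-ventral ectoderm than in mesenchyme in 4 of 6 libraries. Cxcr4 UMIs came mainly from muscle cells, which gave 74.0 to 89.5% and had the highest level in 5 of 6 libraries, endothelial cells having it in the C57BL/6 wild type. Ackr3 had its highest level in dorso-ventral ectoderm and its next highest in muscle in 6 of 6 libraries, while mesenchyme, with far more cells, gave 59.6 to 75.4% of its UMIs.

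**Figure D1:**
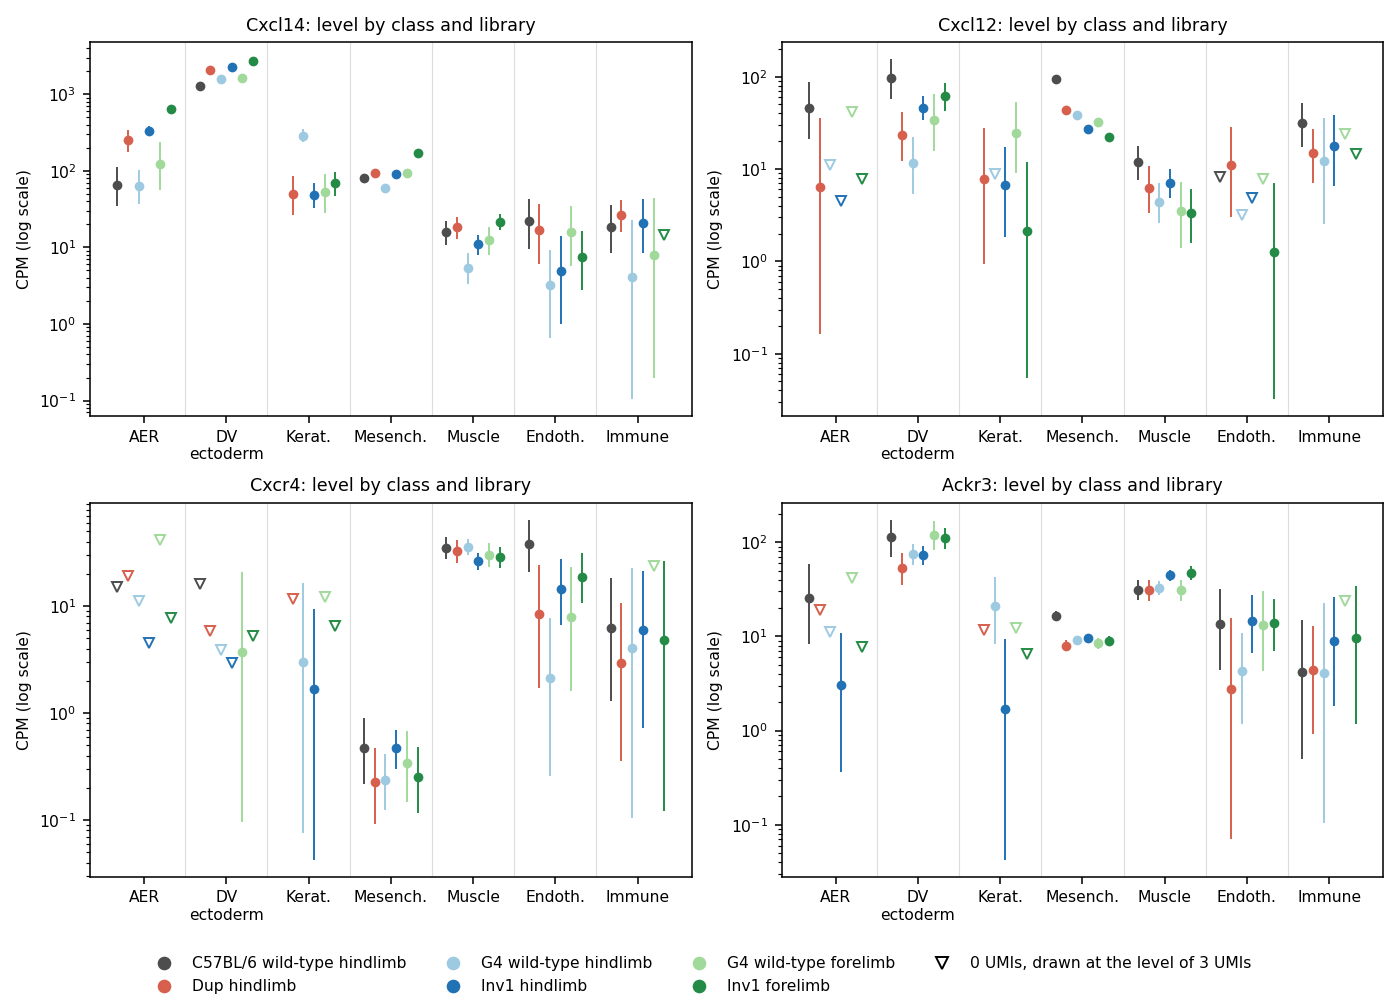
Level of each chemokine gene (log axis, CPM) in each cell class, with 1 point per library and exact 95% Poisson intervals. Open triangles mark libraries with 0 UMIs and stand at the level of 3 UMIs, and neuronal cells are left out. Cxcl14 in dorso-ventral ectoderm stood at 1279 to 2703 CPM, and Cxcr4 in muscle at 26.2 to 35.6 CPM.

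Cxcl14 in the AER was low in the 3 wild-type libraries and higher in the 3 mutant libraries. In hindlimbs its level was 66.1 CPM in the C57BL/6 wild type (13 UMIs in 16 cells) and 249 CPM in Dup (39 UMIs in 25 cells). It was 63.2 CPM in the G4 hindlimb (17 UMIs in 33 cells) against 333 CPM in the Inv1 hindlimb (221 UMIs in 82 cells). In forelimbs it was 124 CPM in G4 (9 UMIs in 10 cells) and 633 CPM in Inv1 (245 UMIs in 39 cells). The lowest mutant level was above the highest wild-type level. This order is what the gene was chosen for, and nothing is read from it.

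The ratios of these levels were 3.77 (95% interval 1.97 to 7.70) for Dup, 5.27 (3.22 to 9.21) for the Inv1 hindlimb and 5.11 (2.65 to 11.3) for the Inv1 forelimb. In the same class, 20.9%, 21.1% and 24.7% of the genes with 10 or more UMIs over the pair were also higher by 1.5-fold or more, and 1.01% (46 of 4539) were so in all 3 pairs. By ratio, Cxcl14 was number 71 of 4962 genes from the highest in Dup, 74 of 7773 in the hindlimb and 113 of 5988 in the forelimb of Inv1. The 2 wild-type hindlimbs had a ratio of G4 to C57BL/6 of 0.955 (0.437 to 2.14).

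The cells behind the sums differed between Dup and Inv1. In Dup, 1 cell held 20 of the 39 UMIs, and without the cell with the most UMIs in each library the Dup ratio was 2.15 (0.95 to 5.17), while those of Inv1 were 5.52 in hindlimb and 7.55 in forelimb. The median AER cell had 0 Cxcl14 UMIs in Dup and in all wild types, 2 in the hindlimb and 5 in the forelimb of Inv1. Cells with 5 or more UMIs numbered 1 of 25 in Dup, 16 of 82 in the Inv1 hindlimb, 23 of 39 in the Inv1 forelimb and 0 in each wild type. The Dup sum thus rested on few cells.

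A UMI of Cxcl14 was found in 43.8% of AER cells of the C57BL/6 wild type (exact 95% interval 19.8 to 70.1%) and in 48.0% in Dup (27.8 to 68.7%). It was found in 39.4% of those of the G4 hindlimb (22.9 to 57.9%) and 75.6% of those of the Inv1 hindlimb (64.9 to 84.4%). In forelimbs the shares were 40.0% (12.2 to 73.8%) and 87.2% (72.6 to 95.7%). With every cell thinned to 4000 UMIs, the shares were 31.3, 40.0, 27.3, 62.2, 40.0 and 76.9% in the same order. Endothelial cells, which should lack the gene, had a UMI in 4.44 to 20.0% of cells unthinned and 2.22 to 12.5% thinned, at a median depth of 8715 to 21336.5 UMIs against 5691 to 9194 in the AER. These shares come from the values the gene was selected on and are given as a description.

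**Figure D2:**
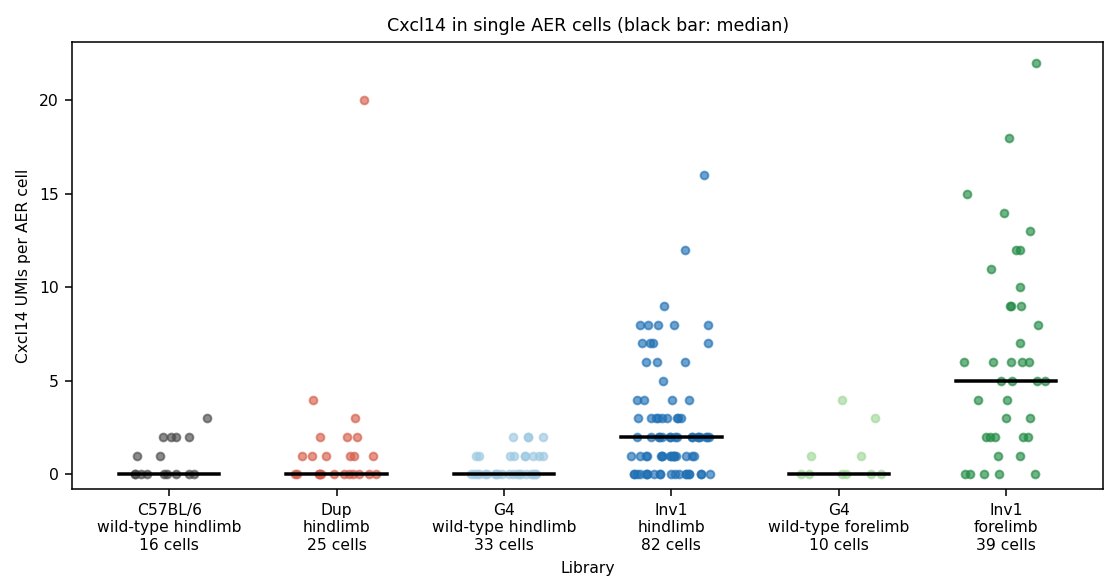
Cxcl14 UMIs in each single AER cell (vertical axis, UMIs per cell) by library (horizontal axis), with 1 point per cell and the median as a black bar. Of 39 Inv1 forelimb cells, 34 had a UMI of Cxcl14, and in Dup 1 of 25 cells held 20 of the 39 UMIs.

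How AER cells were delimited changed the size of the ratio for Inv1. A gate of UMIs of 2 or more of Sp6, Dlx5, Dlx6, Msx2, Fgf9 and Rspo2 within the epithelial classes took 116 cells of the Inv1 hindlimb (80 of the AER class) and 59 of the G4 hindlimb (33 of it). Cxcl14 was then at 588 and 419 CPM, a ratio of 1.40 (1.22 to 1.62). In forelimbs the gate gave 840 against 464 CPM and a ratio of 1.81 (1.52 to 2.17), and in the C57BL/6 pair 414 against 83.7 CPM and a ratio of 4.95 (3.20 to 7.97). The AER class of the authors' hindlimb annotation gave 4.499 (2.88 to 7.40) for the Inv1 hindlimb. Of the gated cells, 39 of 60 in the Inv1 forelimb and 9 of 25 in the G4 forelimb were of the AER class. In the C57BL/6 pair 25 of 44 in Dup and 15 of 18 in wild type were. The gate held 271 Cxcl14 UMIs in the G4 hindlimb and 158 in the G4 forelimb, against 17 and 9 in their AER classes. In the mutants it held 718 in the Inv1 hindlimb, 603 in the Inv1 forelimb and 146 in Dup, against 221, 245 and 39. In the C57BL/6 wild type it held 24 against 13. Most gated UMIs of the G4, Inv1 and Dup libraries thus came from other epithelial classes. The part of those classes in the ratios was not tested. Most AER cells the gene was selected on are in the gate, and the ratio of the gated Inv1 hindlimb was below 1.5-fold.

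The wild-type AER had 4.05 to 7.54% of the Cxcl14 level of dorso-ventral ectoderm of the same library, Dup 11.9%, and Inv1 14.8% in hindlimb and 23.4% in forelimb. The sum of 10 ectoderm markers in AER cells was 2437, 3708 and 2560 CPM in the wild types and 2808, 3993 and 3755 CPM in Dup, Inv1 hindlimb and Inv1 forelimb. It was 1797 to 3197 CPM in dorso-ventral ectoderm, so it cannot tell cells of that class from ridge cells. The sum of 16 mesenchyme markers in AER cells was 967, 401 and 1528 CPM in the wild types and 691, 586 and 793 CPM in the mutants, or 18.0 to 47.8% of the level in mesenchyme itself. The part of these cells and markers in the AER ratios was not tested. Without AER cells that held 10 or more of the mesenchyme markers, 3 in the C57BL/6 wild type and 1 in Dup, the Dup ratio was 3.14 (1.43 to 7.84).

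In dorso-ventral ectoderm, where Cxcl14 was most abundant, all 3 mutants were above their wild types. Its level was 1279 CPM in the C57BL/6 wild type and 2093 CPM in Dup, a ratio of 1.64 (1.42 to 1.89). The Inv1 hindlimb had 2255 CPM against 1559 CPM in G4, a ratio of 1.45 (1.35 to 1.55). The Inv1 forelimb had 2703 CPM against 1643 CPM in G4, a ratio of 1.65 (1.48 to 1.83). The 3 wild types and the 3 mutants did not overlap, but the share of all genes with such an order was not computed. The ratio of the G4 to the C57BL/6 wild type was 1.22 (1.06 to 1.41), so wild types also differed beyond counting error.

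Cxcl14 in dorso-ventral ectoderm was past 1.5-fold upward in Dup, where 16.4% of 6851 genes were. It was also past it upward in the Inv1 forelimb, where 11.7% of 7600 genes were. In the Inv1 hindlimb, where 13.7% of 9116 genes were, it stayed below that size. A Cxcl14 UMI was found in 95.2 to 100% of ectoderm cells in every library. That share was close to its ceiling and could show little of a difference. With cells thinned to equal depth as in the AER, the share was 81.8% in the C57BL/6 wild type and 93.5% in Dup. It was 92.2 and 100% in the G4 and Inv1 hindlimbs, and 95.8 and 100% in the G4 and Inv1 forelimbs. Each mutant was thus above its wild type in the thinned share as well as in the level, and the difference in share was not tested. Dup had 1070 Cxcl14 UMIs in 62 cells and the C57BL/6 wild type 237 in 11, fewer per cell in Dup. The median depth was 7454 UMIs in Dup and 13499 in that wild type. Cells with Wnt7a, a marker of dorsal ectoderm, but without En1, a ventral one, had 0.251 to 1.87 times the Cxcl14 level of cells with En1 alone, with no common direction over the 6 libraries. The C57BL/6 wild type held only 11 ectoderm cells, and mesenchyme markers stood there at 29.9% of the mesenchyme level, against 9.90% in Dup and 4.39 to 9.41% in the other libraries. Their part in the Dup ratio was not tested.

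Mesenchyme gave 64.5 to 83.0% of all Cxcl14 UMIs, although its level there was far below that of ectoderm. It was 80.0 CPM in the C57BL/6 wild type and 92.8 CPM in Dup, a ratio of 1.16 (1.09 to 1.24). In hindlimbs it was 60.5 CPM in G4 and 91.9 CPM in Inv1, a ratio of 1.52 (1.45 to 1.59). In forelimbs it was 93.2 CPM in G4 and 168 CPM in Inv1, a ratio of 1.81 (1.72 to 1.90). Cxcl14 was past 1.5-fold upward in both Inv1 pairs, where 4.95% of 14903 and 4.08% of 14633 genes were, and in Dup was not, where 4.29% of 14581 were. With a limit of 3000 detected genes the Inv1 hindlimb ratio was 1.38 and that of Dup 1.03. The wild types differed as well, with a ratio of 0.756 (0.711 to 0.804) of G4 to C57BL/6 hindlimb, a pair with 8.01% of 14769 genes past 1.5-fold upward and 13.1% downward.

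Mesenchyme was also split by position, with UMIs of Hoxa13 or Hoxd13 but of neither Meis gene marking distal cells, and UMIs of Meis1 or Meis2 but of neither Hox gene proximal ones. Distal cells made up 24.2% of mesenchyme cells in the C57BL/6 wild type and 49.0% in Dup, 42.7 and 59.8% in the G4 and Inv1 hindlimbs, and 62.1 and 71.5% in the forelimbs. Cxcl14 in distal cells was at 31.3 CPM in the C57BL/6 wild type and 50.4 CPM in Dup, 35.5 and 62.9 CPM in the hindlimbs of G4 and Inv1, and 81.8 and 154 CPM in the forelimbs. Distal ratios were 1.61 (1.36 to 1.92), 1.77 (1.63 to 1.92) and 1.88 (1.77 to 2.01) for Dup, Inv1 hindlimb and Inv1 forelimb. Proximal ratios were 1.53 (1.37 to 1.70), 2.19 (1.99 to 2.42) and 1.42 (1.10 to 1.85). Within each position the Dup ratio was larger than that of mesenchyme as a whole.

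In the authors' finer mesenchyme classes, deposited for the C57BL/6 pair, the Dup level of Cxcl14 was above the wild type's in 5 of 6. Cxcl14 was at 49.95 CPM in Dup and 32.7 CPM in wild type in the autopod, the limb's distal end, and at 155 and 93.2 CPM in the stylopod (the segment next to the trunk). In muscle connective tissue, which guides muscle patterning, Cxcl14 was highest of the mesenchyme classes, at 334 CPM in Dup and 350 CPM in wild type, a ratio of 0.956 (0.839 to 1.09). The autopod class held 14.5% of the wild-type library and 31.6% of the Dup library. With the finer classes weighted as in wild type, the Dup ratio of Cxcl14 in mesenchyme was 1.38.

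**Figure D3:**
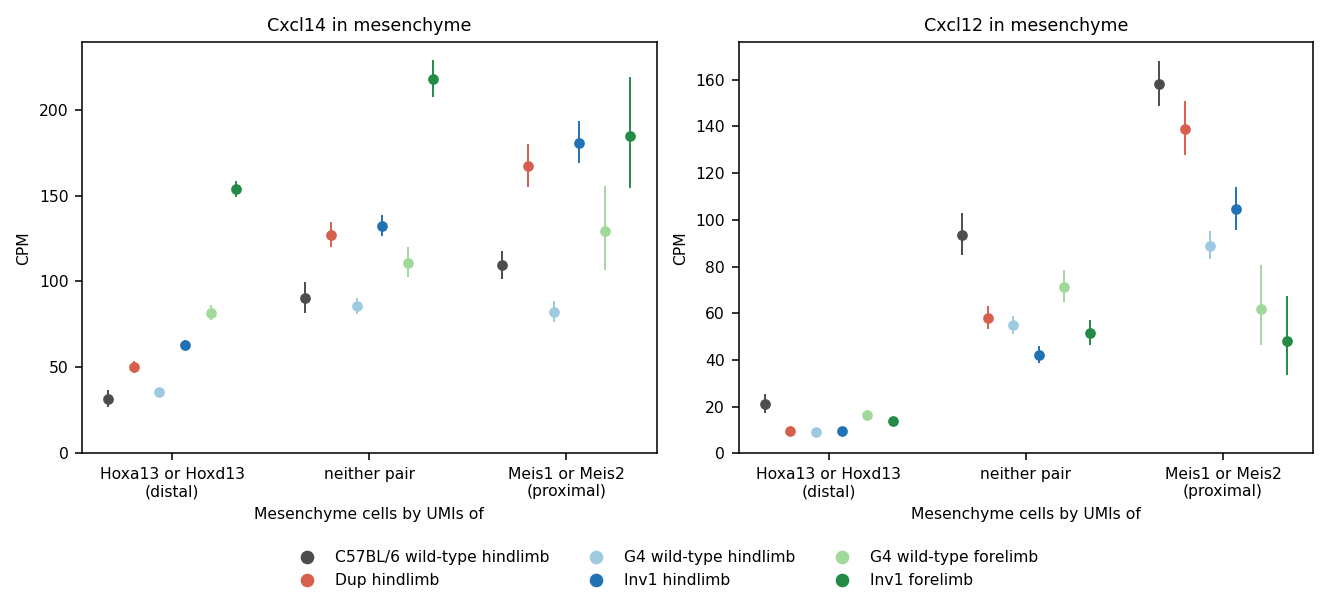
Levels of Cxcl14 and Cxcl12 (CPM, exact 95% Poisson intervals) in mesenchyme cells with UMIs of distal genes, of proximal genes or of neither, for each library. Cxcl12 was at 8.94 to 21.2 CPM in distal and 48.3 to 158 CPM in proximal cells.

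In muscle cells Cxcl14 was at 5.45 to 21.7 CPM, with UMIs in 6.38 to 15.9% of cells. The ratios were 1.17 (0.715 to 1.93) for Dup, 2.005 (1.18 to 3.52) for the Inv1 hindlimb and 1.75 (1.09 to 2.89) for the Inv1 forelimb, but 40 of the 65 UMIs of the last were in 1 cell, and without the cell with the most UMIs its ratio was 0.987. In Dup 19 of 38 muscle UMIs were in 1 cell, and the ratio without the cell with the most UMIs in each library was 0.689. The ratio of the G4 to the C57BL/6 wild type was 0.348 (0.191 to 0.619). Past 1.5-fold upward in muscle were 7.77% of 10486 genes in Dup, 10% of 11579 in the Inv1 hindlimb and 7.13% of 11095 in the Inv1 forelimb. Keratinocytes of the G4 hindlimb, at 289 CPM, were above those of the other libraries read, at 48.6 to 69.0 CPM, which gave the Inv1 hindlimb a ratio of 0.168 (0.107 to 0.257), in a pair with 15.2% of 7678 genes past 1.5-fold downward. Keratinocytes were the class with the next highest level after ectoderm in the G4 hindlimb, with UMIs in 14 of 29 cells and 26 of the 97 UMIs in 1 cell.

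Forelimb mesenchyme had more Cxcl14 than hindlimb mesenchyme of the same genotype. The forelimb to hindlimb ratio in mesenchyme was 1.54 (1.46 to 1.63) in G4 and 1.83 (1.76 to 1.90) in Inv1. In the AER it was 1.96 (0.771 to 4.65) in G4, an interval that holds 1, and 1.90 (1.58 to 2.29) in Inv1. The median of all genes was 0.38 higher in the G4 forelimb than hindlimb mesenchyme on the log2 scale, and 35% of 14764 genes were past 1.5-fold upward there, against 10.7% of 14859 in the Inv1 pair.

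Within mesenchyme Cxcl12 was higher in proximal than in distal cells in 6 of 6 libraries. Its mesenchyme level was 95.4 CPM in the C57BL/6 wild type, the highest of the 6 libraries, and 43.6 CPM in Dup. It was 38.6 CPM in the G4 and 27.4 CPM in the Inv1 hindlimb, and 32.2 and 22.3 CPM in the G4 and Inv1 forelimbs. Each mutant was below its own wild type, while the Dup level was above the G4 levels of both limbs.

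The Cxcl12 ratios in mesenchyme were 0.457 (0.426 to 0.490) for Dup, 0.709 (0.662 to 0.760) for the Inv1 hindlimb and 0.693 (0.627 to 0.767) for the Inv1 forelimb. Only that of Dup was past 1.5-fold downward, where 9.84% of 14581 genes were, against 4.09% of 14903 in the Inv1 hindlimb and 14% of 14633 in the Inv1 forelimb. The wild-type hindlimbs had a ratio of G4 to C57BL/6 of 0.404 (0.379 to 0.431), whose interval overlapped that of Dup, in a pair with 13.1% of 14769 genes past 1.5-fold downward.

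Within proximal mesenchyme the Cxcl12 ratios were nearer to 1 than in the whole class, and within distal mesenchyme those of Inv1 were and that of Dup was not. In proximal cells its level was 158 CPM in the C57BL/6 wild type and 139 CPM in Dup, 89.0 and 105 CPM in the G4 and Inv1 hindlimbs, and 61.9 and 48.3 CPM in the forelimbs. The proximal ratios were 0.878 (0.792 to 0.972), 1.17 (1.05 to 1.31) and 0.780 (0.492 to 1.22). Distal ratios were 0.451 (0.351 to 0.582), 1.06 (0.890 to 1.27) and 0.849 (0.723 to 0.998). For the Inv1 hindlimb both positions had ratios above 1, while cells with UMIs of neither gene pair had one of 0.771 (0.692 to 0.860) and the whole class one of 0.709. The share of proximal cells was 9.55% in it against 20.2% in G4. For Dup the share of proximal cells was 14.7% against 38.2% in wild type.

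In the finer classes of the C57BL/6 pair, Cxcl12 was lowest in autopod and highest in stylopod mesenchyme in both libraries. In the autopod it was at 4.602 CPM in Dup and 13.2 CPM in wild type, a ratio of 0.349 (0.231 to 0.531). In the zeugopod, the middle segment, it was at 41.1 and 69.2 CPM, a ratio of 0.594 (0.516 to 0.683), and in the stylopod at 149 and 183 CPM, a ratio of 0.813 (0.740 to 0.892). In chondrocyte progenitors the ratio was 0.2497 (0.106 to 0.545) in the autopod and 1.14 (0.853 to 1.53) in the stylopod, and in muscle connective tissue 0.466 (0.324 to 0.668). With the finer classes weighted as in wild type, the ratio in mesenchyme was 0.751.

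Cxcl12 in AER cells was close to absent outside the C57BL/6 wild type. There it had 9 UMIs in 5 of 16 cells, a level of 45.8 CPM. It had 1 UMI in Dup and 0 in the G4 and Inv1 libraries. In the Inv1 hindlimb 0 of 82 cells allows a share of cells with a UMI of up to 3.66%. In the G4 forelimb 0 of 10 cells allows one of up to 30.0%. In mesenchyme only 14.1 to 39.7% of cells had a Cxcl12 UMI, so these limits do not bound the share of cells that express the gene. Of the 9 UMIs, 6 were in the 3 cells with 10 or more mesenchyme markers. Muscle cells had 3.33 to 11.9 CPM of Cxcl12, and endothelial cells had 0 to 4 UMIs.

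In dorso-ventral ectoderm Cxcl12 differed in opposite directions between the mutant hindlimbs. Its level was 97.1 CPM in the C57BL/6 wild type (18 UMIs) and 23.5 CPM in Dup (12 UMIs), a ratio of 0.242 (0.106 to 0.530), with 20.8% of 6851 genes past 1.5-fold downward. It was 11.6 CPM in the G4 hindlimb (9 UMIs) and 46.2 CPM in the Inv1 hindlimb (47 UMIs), a ratio of 3.99 (1.93 to 9.25). In forelimbs it was 33.8 CPM in G4 and 61.5 CPM in Inv1, a ratio of 1.82 (0.856 to 4.299). Of the 9 UMIs of the G4 forelimb 5 were in 1 cell. Without the cell with the most UMIs in each library the forelimb ratio was 3.36 (1.18 to 13.2). Those of Dup and the Inv1 hindlimb were then 0.288 (0.112 to 0.728) and 4.57 (2.03 to 12.1). The wild-type hindlimbs stood at either end, with a ratio of G4 to C57BL/6 of 0.119 (0.0473 to 0.280). Mesenchyme markers in these cells stood at 772 CPM in the C57BL/6 wild type, 239 CPM in Dup, 98.0 and 146 CPM in the hindlimbs of G4 and Inv1, and 301 and 176 CPM in the forelimbs. They were lower in the library with less Cxcl12 in both hindlimb pairs and higher in it in the forelimb pair, and their part in the ratios was not tested.

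Cxcr4 marked the muscle class. Its level in muscle cells was 35.2 CPM in the C57BL/6 wild type, 32.9 CPM in Dup, 35.6 and 26.2 CPM in the G4 and Inv1 hindlimbs, and 30.2 and 28.7 CPM in the forelimbs. In mesenchyme it was at 0.226 to 0.471 CPM. Every library had UMIs of 14 of 14 muscle markers in the class.

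The muscle ratios of Cxcr4 were 0.935 (0.662 to 1.32) for Dup, 0.736 (0.570 to 0.9502) for the Inv1 hindlimb and 0.948 (0.675 to 1.34) for the Inv1 forelimb. None was past 1.5-fold, where 11.2%, 5.62% and 22.3% of genes were downward, and only the interval of the Inv1 hindlimb left out 1. The G4 and C57BL/6 wild-type hindlimbs had a ratio of 1.01 (0.757 to 1.36). A Cxcr4 UMI was found in 24.5 to 37.1% of muscle cells at a median depth of 9760 to 16663 UMIs, and in 9.82 to 15.2% after thinning to 4000 UMIs. In mesenchyme, at a median of 6611 to 9807 UMIs, it was found in 0.141 to 0.444% of cells unthinned and 0 to 0.186% thinned.

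Muscle cells were also split by Myog, a regulator of muscle differentiation. The Cxcr4 level of cells with a Myog UMI against those without was 1.20 times as high in the C57BL/6 wild type, 0.866 in Dup, 0.709 and 0.787 in the G4 and Inv1 hindlimbs, and 0.964 and 0.556 in the forelimbs. Only the interval of the Inv1 forelimb (0.341 to 0.887) left out 1.

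No AER cell had a UMI of Cxcr4, 0 of 205 over the 6 libraries, which allows a share of cells with a UMI of up to 1.46%. It does not bound the share of cells that express the gene, since most muscle cells had no Cxcr4 UMI either. Dorso-ventral ectoderm had 1 UMI in all, in the G4 forelimb.

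Endothelial cells also held Cxcr4, in small numbers. The UMIs were 14 in the C57BL/6 wild type and 3 in Dup, 2 and 9 in the G4 and Inv1 hindlimbs, and 3 and 15 in the forelimbs. The ratios were 0.219 (0.0403 to 0.783) for Dup, with 15.8% of 7110 genes past 1.5-fold downward, 6.85 (1.42 to 65.1) for the Inv1 hindlimb, with 18.1% of 8646 genes past it upward and 9.06% downward, and 2.40 (0.680 to 13.0) for the Inv1 forelimb, with 10.5% of 8370 upward and 31.8% downward. The G4 to C57BL/6 ratio of the wild types was 0.0556 (0.00613 to 0.242). Of the 14 UMIs of the C57BL/6 wild type 10 were in 1 cell, and without the cell with the most UMIs in each library the Dup ratio was 0.2503 (0.00508 to 2.53), from 1 and 4 UMIs.

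Ackr3 was the receptor of the ectoderm and also of muscle. In dorso-ventral ectoderm its level was 113 CPM in the C57BL/6 wild type and 52.8 CPM in Dup, 74.8 and 72.8 CPM in the G4 and Inv1 hindlimbs, and 120 and 111 CPM in the forelimbs. The ratios were 0.466 (0.254 to 0.867), 0.974 (0.681 to 1.40) and 0.920 (0.592 to 1.46), and that of the G4 to the C57BL/6 wild type was 0.660 (0.394 to 1.14). Without the cell with the most UMIs, which held 7 of the 21 in the C57BL/6 wild type, the Dup ratio was 0.568 (0.282 to 1.19). In the AER Ackr3 had 5 UMIs in the C57BL/6 wild type, 4 of them in the 3 cells with mesenchyme markers, 2 in the Inv1 hindlimb and 0 in the other 4 libraries. The AER level of the C57BL/6 wild type, 25.4 CPM, was 22.4% (6.61 to 61.2%) of its ectoderm level, and that of the Inv1 hindlimb 4.14% (0.492 to 15.5%). The counts of 0 allow up to 47.9% in Dup and 44.7% in the G4 forelimb. They allow up to 18.9% in the G4 hindlimb and 8.86% in the Inv1 forelimb. Ackr3 was thus lower in the ridge than beside it, by an amount that some libraries bound only loosely.

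In muscle cells Ackr3 was at 31.4 CPM in the C57BL/6 wild type, 30.9 CPM in Dup, 33.0 CPM in the G4 hindlimb, 31.2 CPM in the G4 forelimb, and 44.6 and 47.0 CPM in the Inv1 hindlimb and forelimb. Both Inv1 libraries were above all others, but the share of all genes with such an order was not computed. The ratios were 0.986 (0.688 to 1.41) for Dup, 1.35 (1.08 to 1.71) for the Inv1 hindlimb and 1.505 (1.11 to 2.06) for the Inv1 forelimb, the last just past the size limit, in a pair with 7.13% of 11095 genes past it upward. The wild types had a ratio of 1.05 (0.774 to 1.44) of G4 to C57BL/6 hindlimb and 0.947 (0.689 to 1.29) of G4 forelimb to hindlimb. The sum of 8 myocyte markers was also higher in Inv1 muscle, at 5000 against 2671 CPM in hindlimb and 8917 against 3583 CPM in forelimb, and was 2408 against 1359 CPM in Dup, where the Ackr3 ratio was 0.986. Its part in the ratios was not tested. Cells with and without Myog had Ackr3 ratios of 0.683 to 1.10, with 1 inside the interval in 6 of 6 libraries.

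Some muscle cells had UMIs of both receptors of Cxcl12. An Ackr3 UMI was found in 29.3 to 48.2% of muscle cells, or 9.57 to 20.2% after thinning, against 5.27 to 11.7% and 3.31 to 6.51% of mesenchyme cells. Both had a UMI in 21 of 132 cells of the C57BL/6 wild type, 15 of 188 of Dup, 36 of 221 and 40 of 268 of the G4 and Inv1 hindlimbs, and 16 of 112 and 34 of 168 in the forelimbs. Among cells with Cxcr4, 32.6 to 63.0% had Ackr3, against 29.3 to 48.2% of all muscle cells. Independent shares would give 17.8 cells with both in the C57BL/6 wild type, 13.5 in Dup, 28.2 and 36.4 in the G4 and Inv1 hindlimbs, and 13.5 and 26.0 in the forelimbs. Cells with more UMIs are more often positive for either gene, and the part of depth in this was not tested.

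In mesenchyme Ackr3 was at 16.5 CPM in the C57BL/6 wild type and at 7.99 to 9.54 CPM in the other 5 libraries. The ratios were 0.485 (0.409 to 0.574) for Dup, 1.04 (0.915 to 1.18) for the Inv1 hindlimb and 1.06 (0.888 to 1.28) for the Inv1 forelimb. The ratio of the G4 to the C57BL/6 wild type, 0.556 (0.481 to 0.644), was close to that of Dup. Ackr3 was higher in proximal than in distal mesenchyme in 5 of 6 libraries, the Inv1 forelimb having 8.52 and 8.79 CPM. In proximal mesenchyme it was at 31.5 CPM in the C57BL/6 wild type and 19.6 CPM in Dup, and in distal mesenchyme at 5.06 and 4.97 CPM. The Dup ratio was 0.982 (0.625 to 1.59) in distal and 0.622 (0.475 to 0.807) in proximal cells, and 0.696 with the finer classes weighted as in wild type. For the Inv1 hindlimb the distal ratio was 1.51 (1.21 to 1.90) and the proximal ratio 0.853 (0.655 to 1.10).

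**Figure D4:**
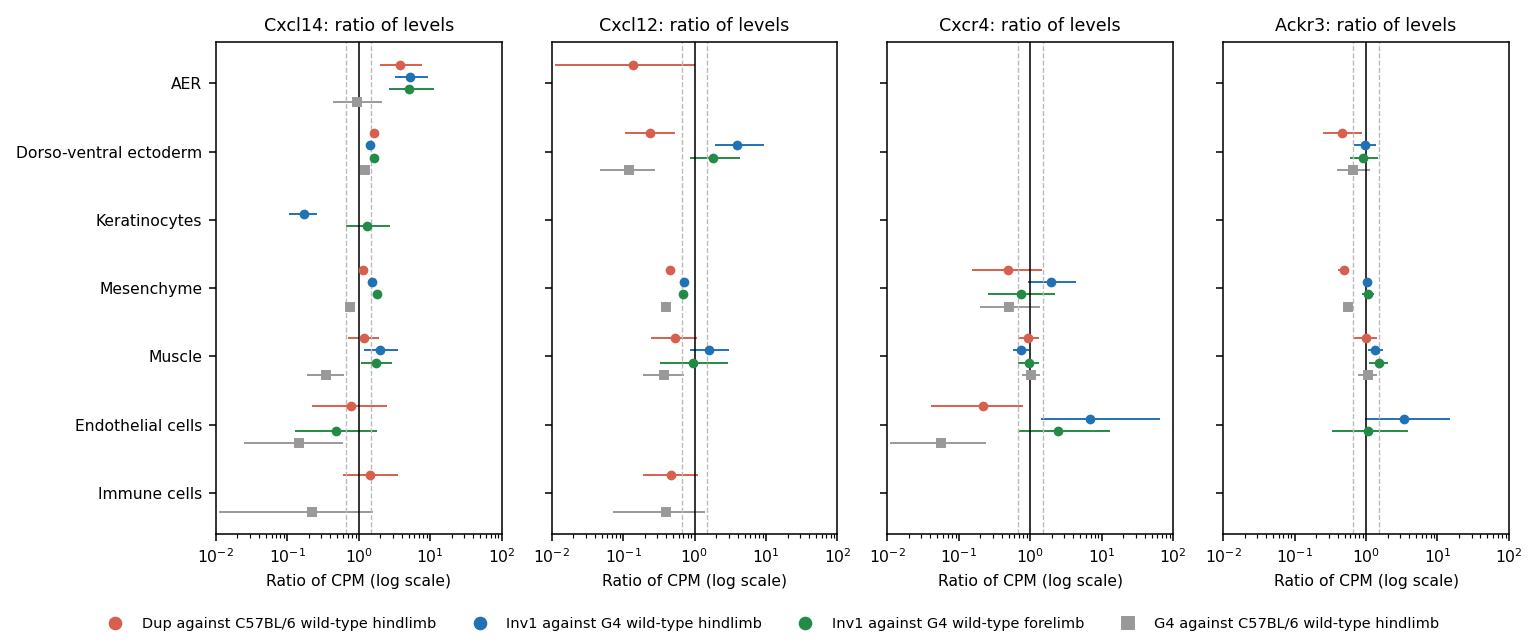
Ratio of each mutant to its wild type for each gene and class (log axis, exact 95% intervals, drawn as far as the axis reaches). Dashed lines mark 1.5-fold each way, grey squares the ratio of the G4 to the C57BL/6 wild-type hindlimb, and pairs with under 10 UMIs are left out. Cxcl14 was above 1 in AER, dorso-ventral ectoderm and mesenchyme in all 3 mutant pairs, and Cxcl12 below 1 in mesenchyme in all 3.

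Over all classes and pairs, 45 mutant to wild-type ratios of the members had 10 or more UMIs over the pair apart from Cxcl14 in the AER. Of these, 25 were past 1.5-fold, and 15 were past it with an interval that left out 1. Over the classes and pairs that held these ratios, 4.08 to 20.9% of all genes were past 1.5-fold upward and 4.09 to 31.8% downward. The share of all genes past 1.5-fold with an interval that left out 1 was not computed. In the Inv1 forelimb pair the median gene was itself lower than in G4, by 0.18 on the log2 scale in mesenchyme, 0.18 in ectoderm and 0.21 in muscle. Relative to the median gene, Cxcl14 had a ratio of 2.04 in mesenchyme and 1.86 in dorso-ventral ectoderm, and Cxcl12 one of 0.784 in mesenchyme.

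Most other chemokines were found in immune cells. Of 35 further ligands 17 had a row in both matrices and 11 had 100 or more UMIs in all. In 7 of these the median level was highest in immune cells, among them Pf4 at 1501 to 11411 CPM and Ccl4 at 0 to 952 CPM. Ccl25 and Ccl27a were spread over the limb, at 23.4 to 30.4 CPM and 17.2 to 22.2 CPM in mesenchyme. In epithelia Ccl27a was at 13.8 to 41.3 CPM in the AER and Ccl25 at 13.7 to 32.4 CPM in dorso-ventral ectoderm. In the AER 0, 2 and 1 further ligands had 10 or more UMIs over the pair in Dup, Inv1 hindlimb and Inv1 forelimb, and the ratios of Ccl25 (1.62) and Ccl27a (1.62 in hindlimb and 3.00 in forelimb) had intervals that held 1. In dorso-ventral ectoderm Ccl25 and Ccl27a were both past 1.5-fold downward in Dup, where 20.8% of 6851 genes were. Both were past it upward in the Inv1 forelimb, where 11.7% of 7600 genes were, and neither was past it in the Inv1 hindlimb. Between the wild-type hindlimbs both were also past it downward in G4 against C57BL/6, where 25.5% of 7622 genes were. In mesenchyme 0 of 10, 1 of 7 and 1 of 8 measured ligands were past 1.5-fold upward and 4, 2 and 5 downward, in a class with 4.29%, 4.95% and 4.08% of all genes past it upward and 9.84%, 4.09% and 14% downward. The median log2 ratio of these ligands was -0.28, -0.05 and -0.85, against -0.10, 0.05 and -0.18 over all genes. The ligands lower in all 3 pairs, Cxcl10 and Pf4, are inflammatory and platelet chemokines.

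Of 21 further receptors 8 had a row. The 4 with 100 or more UMIs had their highest median level in immune cells, Cx3cr1 at 159 to 909 CPM and Ccr1 at 17.7 to 222 CPM, and Cx3cr1 had 1 UMI and Ccr1 0 UMIs in the AER cells of the 6 libraries. No further receptor had 10 or more UMIs over a pair in AER, dorso-ventral ectoderm or muscle. In mesenchyme 3, 4 and 2 receptors had as many in Dup, Inv1 hindlimb and Inv1 forelimb, of which 0 were past 1.5-fold upward and 3, 1 and 1 downward. Of all genes in mesenchyme 4.29%, 4.95% and 4.08% were past it upward and 9.84%, 4.09% and 14% downward.

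Among 27 genes that relay or limit signals of Cxcl12 receptors, 26 had a row. In AER cells 3 of 13 measured were past 1.5-fold upward in Dup (Gnai1, Gnai3 and Sdc4) and 2 downward (Ptk2 and Mif). In the Inv1 hindlimb 4 of 15 were past it upward (Gnai1, Adrbk1, Grk6 and Sdc4) and 0 downward, and in the Inv1 forelimb 2 of 15 upward (Gnai1 and Adrbk1) and 2 downward (Gnb2 and Jak2). Of all genes in the class 20.9%, 21.1% and 24.7% were past it upward and 18.6%, 13.8% and 26.9% downward. The median log2 ratio of the relay genes was 0.27, 0.12 and -0.04 against 0.00, -0.01 and -0.19 over all genes in the class. Gnai1, an inhibitory G protein subunit, was higher in all 3, with ratios of 5.03 (1.00 to 48.6), 1.94 (0.727 to 6.53) and 2.34 (0.585 to 20.4). Sdc4, a heparan sulphate proteoglycan, had a ratio of 4.61 (1.81 to 13.9) in Dup and intervals that held 1 in Inv1.

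In muscle, where Cxcr4 and Ackr3 are both present, 1 of 18, 1 of 21 and 2 of 21 measured relay genes were past 1.5-fold upward in Dup, Inv1 hindlimb and Inv1 forelimb, and 1, 2 and 2 downward. Of all genes in muscle 7.77%, 10% and 7.13% were past it upward and 11.2%, 5.62% and 22.3% downward. Rgs16, which limits signalling by G protein coupled receptors, was at 78.7 against 54.2 CPM in the Inv1 hindlimb, a ratio of 1.45 (1.22 to 1.73), and at 101 against 64.4 CPM in the Inv1 forelimb, a ratio of 1.56 (1.27 to 1.93). Its Dup ratio was 1.13 (0.812 to 1.58). The wild types had a G4 to C57BL/6 ratio of 1.59 (1.21 to 2.10), as large as that of the Inv1 forelimb.

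Genes most like each member were read over 43 units of a class in a library with 10 or more cells, among 6259 genes. These units share libraries and depth, and the correlations only describe them. Cxcl14 was most like Fgfr2 (Pearson r of log2 levels 0.92), a receptor of FGFs, and Lgals7 (0.90), Sostdc1 (0.86), Cdh3 (0.86) and Cdca7l (0.85). Cxcr4 was most like Tnnt1 (0.79) and Myod1 (0.79), genes of muscle, and Pcdh17 (0.78), Gm7325 (0.77) and Tcf15 (0.77). For Cxcl12 the likeness was lower, with Sema3a (0.73), a guidance cue, Mdh1 (0.71), Robo2 (0.71), Anp32e (0.71) and Hdac3 (0.70). For Ackr3 it was Slc16a1 (0.76), Cdv3 (0.74), Atic (0.73), Hspe1 (0.71) and Cisd1 (0.70). Between the members r was -0.49 for Cxcl14 and Cxcr4, -0.36 for Cxcl12 and Cxcr4, and 0.29 to 0.50 for the other pairs.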

How the data were processed

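The deposited values were raw UMI counts per gene and cell, made by the authors with Cell Ranger version 3 on a custom mm9 reference (the processing notes also name mm10). The annotation release and the use of strand are not given in the sources used here. The authors limited detected genes and mitochondrial counts, removed doublets with Scrublet, normalised with SCT, integrated with Seurat and named Louvain clusters. Their classes were used, with immune and muscle names merged over matrices. The limit of over 2000 detected genes was applied here to both matrices, and no further doublets were removed. A hindlimb-only matrix was left aside except for its annotation, which served as an alternative. Another 13 columns with values per sample were left aside too.

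UMIs were summed per library and class and scaled to CPM over the 15668 genes in both matrices. Classes with under 10 cells in a library were left out. Intervals were exact (Poisson, Clopper-Pearson or conditional binomial, 95%) and a count of 0 was given a limit of 3 counts. The median-of-ratios scaling was computed within a pair. The steps were tested on simulated data. Alternatives were limits of 1000 and 3000 detected genes, median-of-ratios scaling, the mean over cells, totals over all genes, the marker gate, thinning, and removal of the top cell or of AER cells with mesenchyme markers. Named were the 4 members in every class, members of the lists (ligands, receptors and relay genes) with 10 or more UMIs over a pair, and the 5 genes of highest r per member (log2 of CPM plus 10, mean of 20 or more CPM). Members and lists were chosen with earlier results of these data known. Splits by position, Wnt7a, En1 and Myog, the finer classes and the removal of the top cell in classes other than the AER were added after seeing the data. Python 3.11.15, numpy 2.4.6, scipy 1.17.1, pandas 2.3.3 and matplotlib 3.10.9 were used.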

Additional observations from a re-analysis of the deposited data

Results flagged for a closer look

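In 2 cases the mutant hindlimbs differed from their wild types in opposite directions, with 1 library per group, and in both the difference between the mutants was not tested. Cxcl12 in dorso-ventral ectoderm had a ratio of 0.242 in Dup and 3.99 in the Inv1 hindlimb. Cxcr4 in endothelial cells had a ratio of 0.219 in Dup and 6.85 in the Inv1 hindlimb, from 3 against 14 and 9 against 2 UMIs. Of the 14 UMIs of the C57BL/6 wild type 10 were in 1 cell. The G4 to C57BL/6 ratios of the wild types, 0.119 for Cxcl12 and 0.0556 for Cxcr4, were further from 1 than those of the mutants.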

How the results depend on the processing

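Each group has 1 library, and no paired analysis and no test was run. For Cxcl14 in the AER, the marker gate lowered the ratio to 1.40 in the hindlimb and 1.81 in the forelimb of Inv1, with cells of other epithelial classes taken in. When only genes averaging at least 50 CPM were counted, the shares past 1.5-fold in the AER were 16.5% upward and 14.8% downward for Dup, 7.92 and 7.51% for the Inv1 hindlimb, and 14.1 and 29.3% for the Inv1 forelimb. For the 45 other ratios and for the shares of cells, 283 alternatives were computed, of which 262 moved by no more than the main value's interval, and 20 by more. The remaining 1, Cxcl14 in muscle of the Inv1 forelimb at 0.987 without the cell with the most UMIs, was the only turn of direction among ratios past 1.5-fold with an interval that left out 1. Ratios whose interval held 1 also crossed 1 under several alternatives, and without the top cell they included Cxcl14 in Dup muscle (0.689), immune cells (0.810) and endothelial cells (1.01), and Cxcl12 in Inv1 forelimb muscle (1.33). A limit of 3000 detected genes gave Cxcl14 ratios of 1.38 in mesenchyme and 1.79 in dorso-ventral ectoderm of the Inv1 hindlimb, each across the 1.5-fold limit from its reported value, and Cxcl12 ratios in mesenchyme of 0.371 for Dup and 0.870 and 0.797 for the hindlimb and forelimb of Inv1. The cause was not tested. The count of 15 ratios past 1.5-fold with an interval that left out 1 was 14 with a limit of 3000 detected genes, 14 with median-of-ratios scaling and 13 with the mean over cells. AER classes of 10 to 82 cells and 1 library per group limit what these ratios can show.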
